A study of Homo sapiens with 6 samples.

Results

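Accessible chromatin in the last 5 Mb of human chromosomes was described in DAMI cells, a human leukaemia line, after silencing of HMGA1 and in control cells. The ends taken were both ends of chromosomes 1, 2, 3, 5, 6, 7, 8, 10, 12, 16, 17, 18 and 20, the short-arm end of chromosome 11, and the long-arm ends of chromosomes 13, 14, 15 and 22. These are 31 ends of 18 chromosomes and 155 Mb of the hg19 build. A peak was a member where its summit, the base of highest significance, lay within 5 Mb of such an end. The ends held 4613 of 112610 peaks of the shHMGA1 list and 5532 of 127153 peaks of the control list, 10145 of 239763 in all. Within the ends taken, membership used position alone. The 11q end and the ends of all other chromosomes were left out by rule. The ends were chosen with earlier results of these data known.

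The study compared 3 samples of cells infected with an shHMGA1 lentivirus, which silences HMGA1 by short hairpin RNA, with 3 samples infected with a control lentivirus. All 6 samples carried the label DAMI, were grown in RPMI medium with serum, received virus with magnetic nanoparticles, and were assayed by ATAC-seq, which reads out open DNA as sites where a transposase can insert. No source used here gives the hairpin sequence or the degree of silencing, and peak lists do not measure HMGA1 RNA or the identity of the line. The design text also names a second line, SET-2. The names of the lists give the group but no cell line, so whether SET-2 libraries entered them is unknown, and "shHMGA1 cells" and "control cells" below stand for what each list holds. The deposited data were 1 peak list per group with no values per sample, so no difference below could be set against replicate spread and none carries a p-value. Read depth is unknown. Intervals are 95% intervals for counting error only. They treat neighbouring peaks as independent and the lists as separate counts, although most sites are in both.

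Human chromosomes end in telomeres, arrays of a short repeated sequence bound by protective proteins. Inside the telomere lie subtelomeres, patchworks of sequence that is duplicated between several chromosome ends, and beyond these many ends are rich in genes and in GC bases. Most ends of the hg19 build are capped by a run of unknown bases in place of the telomere. HMGA1 belongs to a family of small chromatin proteins whose AT-hook domains contact stretches rich in A and T. Reads from sequence repeated at several ends cannot be placed with certainty, how such reads were handled is not given in the sources used here, and their part in the counts nearest the ends was not tested.

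Peaks at the ends were fewer per Mb than on the rest of the same chromosomes but were wider and more significant. Median summit −log10 p was 5.88 at the ends and 5.44 in the rest in shHMGA1 cells, and 5.73 and 5.40 in control cells. In shHMGA1 cells the ends held 29.8 peaks per Mb (28.9 to 30.6) and the rest 34.2 (33.95 to 34.45), a ratio of 0.870 (0.844 to 0.896). In control cells the ends held 35.7 peaks per Mb (34.8 to 36.6) and the rest 38.9 (38.6 to 39.2), a ratio of 0.917 (0.893 to 0.943). The rest here was the part of the 18 chromosomes over 5 Mb from either end and outside centromeric, variable and stalk bands and the short arms of chromosomes 13, 14, 15 and 22, 2112 Mb in all. Single ends differed in direction, as 13 of 31 ends in shHMGA1 cells and 12 of 31 in control cells were denser than the rest of their own chromosome.

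The lower density lay in the small peaks. Peak area, the authors' signal value, sums the significance over a peak and grows with width. Peaks below the median area of their list numbered 12.3 per Mb at the ends against 17.4 in the rest in shHMGA1 cells, and 15.6 against 19.9 in control cells. Peaks in the top 10% of their list by area showed the opposite order. They numbered 4.30 per Mb at the ends and 3.49 in the rest in shHMGA1 cells, and 5.19 and 3.87 in control cells. As a share of all peaks, they made up 14.4% (13.4 to 15.5) of shHMGA1 peaks and 14.5% (13.6 to 15.5) of control peaks at the ends, where either whole list has 10% by definition. When only peaks at or above the joined median summit −log10 p of 5.24 were kept, the ends over rest density became 0.982 (0.945 to 1.02) in shHMGA1 cells and 1.01 (0.973 to 1.05) in control cells. The lower density at the ends was thus not seen among the more significant peaks, where both intervals include 1.

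Median width was 575 bp (quartiles 340 and 997) at the ends and 492 bp (310 and 787) in the rest in shHMGA1 cells. In control cells it was 553 bp (330 and 956) at the ends and 479 bp (303 and 771) in the rest. The end peaks were the wider by median at 23 of 31 ends in shHMGA1 cells and at 26 of 31 in control cells. Median area was 1.36 times that of the rest in shHMGA1 cells and 1.28 times in control cells, and it was the larger at 28 and 26 of the 31 ends. Peaks of at least 1000 bp made up 24.8% (23.6 to 26.1) of shHMGA1 peaks at the ends, where 20.1% of the whole list was that wide. They made up 23.3% (22.2 to 24.4) of control peaks at the ends, where 19.4% of the whole list was. Because fewer peaks were wider, covered length per Mb was close, 22.8 kb at the ends and 21.9 kb in the rest in shHMGA1 cells, and 26.5 kb and 24.4 kb in control cells.

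Most end bands stain Giemsa-negative, a class known for a high gene content, and 37 of the 60 bands with end peaks did. Against the Giemsa-negative bands of the rest alone, the ends were again less dense, 0.809 times (0.784 to 0.834) in shHMGA1 cells and 0.864 times (0.840 to 0.889) in control cells. Their median widths stayed above those bands, 575 against 506 bp in shHMGA1 cells and 553 against 492 bp in control cells. The density of the top 10% by area was 0.970 times that of these bands in shHMGA1 cells and 1.06 times in control cells. No counting interval was computed for these ratios, which are near 1, so no difference between the lists is drawn from them.

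The outermost 1 Mb was the densest stretch of the ends. In shHMGA1 cells the bins at 0 to 1, 1 to 2 and 2 to 5 Mb from the end held 40.1, 29.9 and 26.3 peaks per Mb. In control cells they held 46.6, 36.5 and 31.8. The outermost bin was 1.17 times as dense as the rest (1.11 to 1.24) in shHMGA1 cells and 1.20 times (1.14 to 1.26) in control cells, whereas the 2 to 5 Mb bin had 0.768 times and 0.817 times. The first Mb was denser than the 2 to 5 Mb stretch at 24 of 31 ends in shHMGA1 cells and at 26 of 31 in control cells. Its peaks had median widths of 622.5 bp in shHMGA1 cells and 584 bp in control cells, against 543 and 536.5 bp at 2 to 5 Mb. Leaving out the 1q end, the one with most peaks there, left the outermost bin at 1.12 and 1.14 times the rest.

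**Figure D1:**
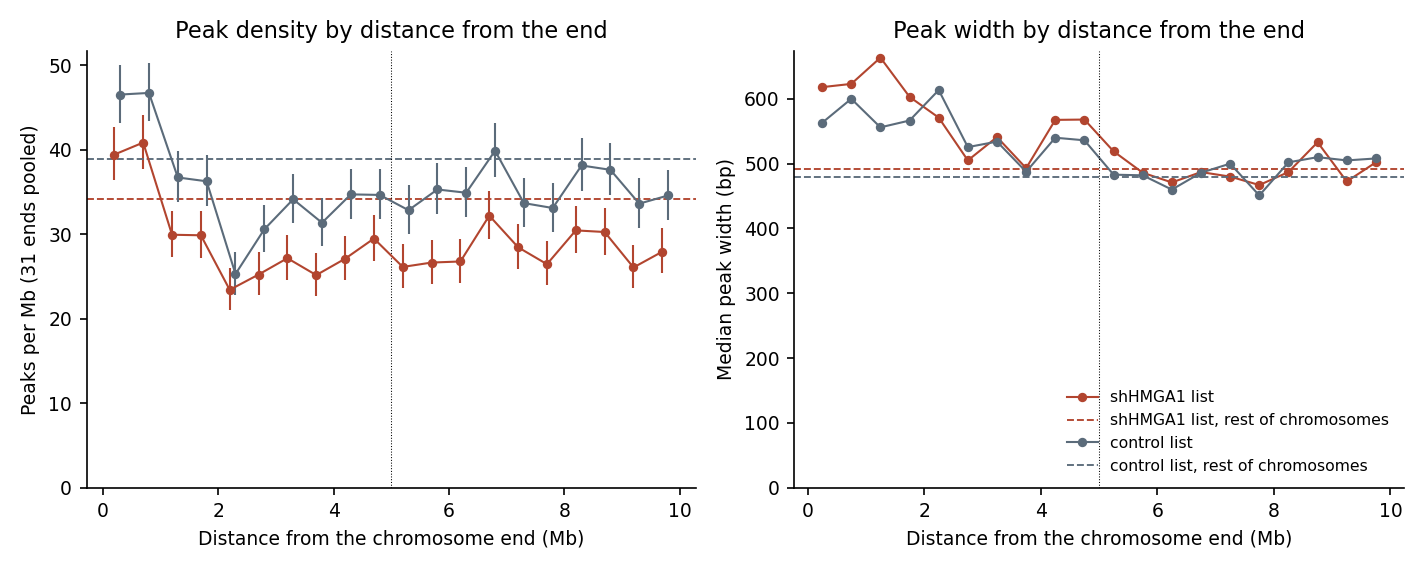
Peaks per Mb (left) and median peak width in bp (right) in steps of 0.5 Mb from the chromosome end, pooled over 31 ends, for the shHMGA1 and control lists. Points on the left carry 95% counting intervals, dashed lines give the rest of the same chromosomes, and the dotted line marks 5 Mb; density is highest in the first Mb in both lists.

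Distances here run from the end of the hg19 coordinates and include any run of unknown bases, which can hold no peak. The lengths of these runs were not used. Within 20 kb of a coordinate end lay 34 shHMGA1 and 36 control peaks, at 12 and 13 of the 31 ends. That is 54.8 and 58.1 peaks per Mb, unknown bases included. Of these, 31 of 34 and 29 of 36 overlapped a peak of the other list. The median area there was 1001 in shHMGA1 cells and 1086 in control cells. Over all 31 ends the outermost peak lay at a median of 60292 bp from the end in shHMGA1 cells and 60250 bp in control cells. The nearest of all was on 17q, 189 bp from the end in shHMGA1 cells (chr17:81194909-81195194, hg19) and 214 bp in control cells. The next peaks inwards in the shHMGA1 list were a second 17q peak at 4670 bp and, at 10037 bp each, a 1p peak (chr1:9951-10654) and a 7q peak. In the control list the next peaks were both on 17q, at 761 and 4649 bp, and the peak at 761 bp had no shHMGA1 counterpart. The farthest outermost peak was that of 20p, at 247769 bp in shHMGA1 cells and 247748 bp in control cells.

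The shHMGA1 list had fewer peaks than the control list at each of the 31 ends taken. Ends left out by rule were not counted here, so this does not cover all chromosome ends. They include an end known from earlier results to hold more shHMGA1 peaks. That all 31 ends go the same way is therefore partly set by the choice of ends. The ends held 919 fewer peaks in the shHMGA1 list than in the control list, a ratio of 0.834 (0.802 to 0.867), against 0.879 (0.870 to 0.888) in the rest. Among 5-Mb windows of the rest, 87.2% were also below 1. The ratio at the ends was 0.948 times that of the rest (0.911 to 0.988). That interval reached 1 when only the more significant peaks were kept (0.974, 0.924 to 1.03). It also did with equal numbers, each list cut to its 56305 most significant peaks (0.960, 0.909 to 1.01). These cuts are not independent, as the stricter threshold kept 55895 shHMGA1 peaks, nearly as many. The interval reached 1 as well without 1q (0.960, 0.921 to 1.00) and without the 3 ends of lowest ratio (0.967, 0.927 to 1.01). The bins at 0 to 1, 1 to 2 and 2 to 5 Mb had ratios of 0.861 (0.797 to 0.929), 0.820 (0.751 to 0.895) and 0.826 (0.783 to 0.872), with overlapping intervals.

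The lower ratio did not stop 5 Mb from the end. In the next 5 Mb inwards from the same ends, a comparison chosen after the values were seen, 4361 shHMGA1 and 5481 control peaks were called, a ratio of 0.796 (0.764 to 0.828), below that of the ends themselves. Peaks at 5 to 10 Mb had median widths of 492 bp in shHMGA1 cells and 489 bp in control cells, near those of the rest. Covered length at the ends was 0.862 times the control value in shHMGA1 cells, against 0.899 times in the rest.

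The ends were set beside interior stretches of the same length. Of the 31 ends, 17 (54.8%) had a ratio below the pooled rest, and of 399 windows of 5 Mb in the rest with at least 20 control peaks, 51.1% did. With only the more significant peaks 21 of 31 ends did, against 50% of windows, and with equal numbers 21 of 31, against 50.3%. In the full lists 13 ends lay below the lower quartile of the windows, 0.821, and 3 above the upper quartile, 0.944. The median ratio was 0.861 over the ends (range 0.619 to 0.960) and 0.874 over the windows (range 0.610 to 1.37). Some ends were left out by rule with earlier results known, whereas no window was left out for its ratio. The ranges, quartile counts and tails of ends and windows therefore come from unlike sets. At the low side, 3 of 31 ends (9.68%) and 2.51% of windows lay below 0.7, a limit chosen after the values were seen. At the high side 21.1% of windows lay above 0.960. That limit is the highest ratio among the ends taken, so no end could lie above it. Measured against the rest of its own chromosome, the ratio was lower at 18 ends and higher at 13, and at 3 ends (2p, 6q and 1q) the counting interval lay wholly below the value of the own chromosome.

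**Figure D2:**
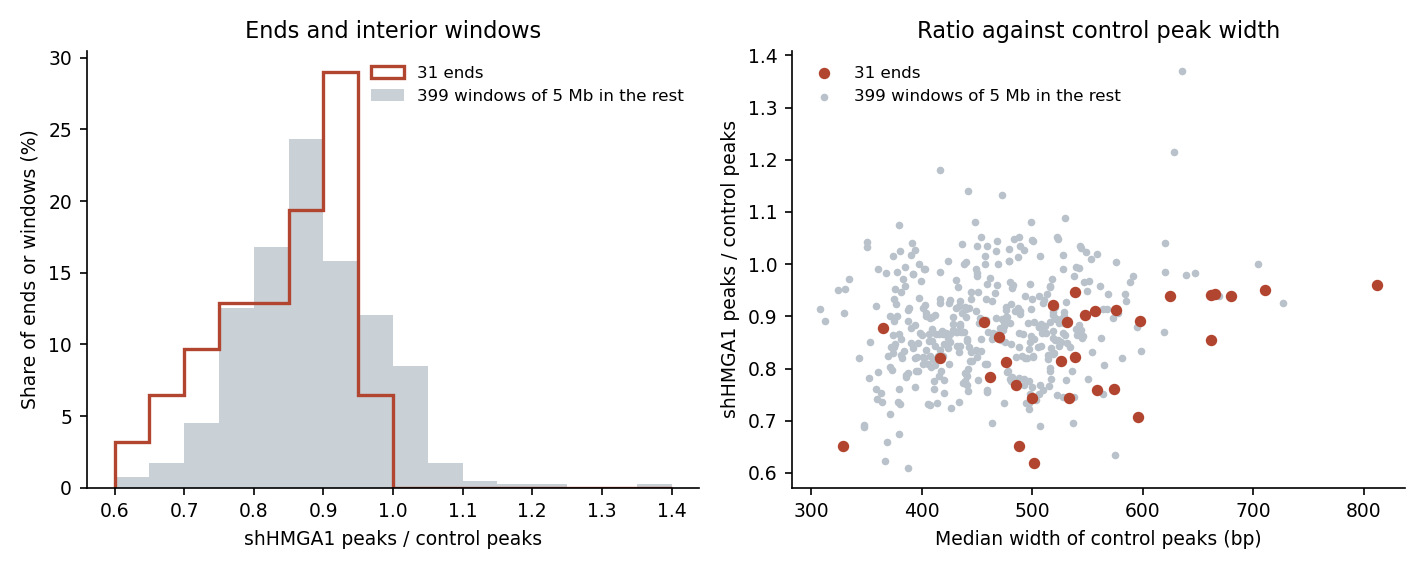
Left, share of the 31 ends (line) and of 399 windows of 5 Mb in the rest (grey) by ratio of shHMGA1 to control peak number; right, that ratio against the median width of control peaks in bp, 1 point per end or window. The highest ratio of an end is 0.960. The 3 ends with the widest control peaks, 16p, 1p and 17q, have ratios of 0.960, 0.951 and 0.939.

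The chromosome ends with the lowest ratios were 2p, 8p and 6q. At 2p, 125 shHMGA1 and 202 control peaks gave 0.619 (0.491 to 0.777), against 0.884 on the rest of chromosome 2. At 8p, the sparsest end in both lists with 8.20 shHMGA1 and 12.6 control peaks per Mb, 41 and 63 peaks gave 0.651 (0.428 to 0.980), against 0.846 on the rest of chromosome 8. At 6q, 99 and 152 peaks also gave 0.651 (0.500 to 0.844), against 0.878 on the rest of chromosome 6. Unshared peaks at these ends were mainly control-only, with 14 shHMGA1-only and 89 control-only at 2p, 2 and 23 at 8p, and 8 and 63 at 6q. Where a site had exactly 1 peak per list, the shHMGA1 peak was by median the narrower, with median log2 width ratios of -0.16 at 2p, -0.09 at 8p and -0.19 at 6q.

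The highest ratios were those of 16p, 1p and 22q. At 16p, 218 shHMGA1 and 227 control peaks gave 0.960 (0.794 to 1.16), against 0.849 on the rest of chromosome 16. At 1p, 196 and 206 peaks gave 0.951 (0.778 to 1.16), against 0.922 on the rest of chromosome 1. At 22q, 72 and 76 peaks gave 0.947 (0.677 to 1.33), against 0.960 on the rest of chromosome 22. Peaks were widest at 16p among all 31 ends, with medians of 779.5 bp in shHMGA1 cells and 812 bp in control cells. At 16p, 12 peaks were shHMGA1-only and 19 control-only. These intervals include the value of the whole rest, so a single high end was not told apart from it.

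The densest end was not the same in the 2 lists, but in shHMGA1 cells 15q, 1q and 3q were nearly equal, with 292, 291 and 290 peaks. The 15q end had most peaks in shHMGA1 cells, 292 or 58.4 per Mb, with 385 or 77.0 per Mb in control cells. The 1q end had most in control cells, 412 or 82.4 per Mb, with 291 or 58.2 per Mb in shHMGA1 cells. The 2 ends of a chromosome were close on some chromosomes, with ratios of 0.903 at 20p and 0.890 at 20q, and of 0.960 at 16p and 0.943 at 16q. They lay farther apart on others, with counting intervals that still overlapped. On chromosome 2 the ratio was 0.619 at 2p and 0.761 at 2q, on chromosome 8 it was 0.651 at 8p and 0.940 at 8q, and on chromosome 3 it was 0.744 at 3p and 0.942 at 3q. The 3q end held 290 shHMGA1 and 308 control peaks, and the 8q end 172 and 183. The p end had the higher ratio on 9 of the 13 chromosomes with both ends.

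The other ends below the pooled rest were as follows, shHMGA1 peaks given before control peaks. There were 87 and 117 at 10q, 183 and 246 at 3p, 162 and 213 at 2q, 63 and 82 at 10p, and 166 and 212 at 18q. There were 78 and 96 at 7q, 145 and 178 at 13q, 119 and 145 at 6p, 106 and 129 at 12q, 188 and 220 at 5q, 167 and 194 at 14q, and 100 and 114 at 18p. Their ratios ran from 0.744 at 10q to 0.877 at 18p. The ends above it, besides those already given, held 105 and 118 at 20q, 162 and 182 at 12p, 115 and 129 at 17p, 112 and 124 at 20p, and 101 and 111 at 7p. The last group was 175 and 192 at 11p, 119 and 129 at 5p, 200 and 213 at 17q, and 164 and 174 at 16q. Their ratios ran from 0.890 at 20q to 0.943 at 16q.

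**Figure D3:**
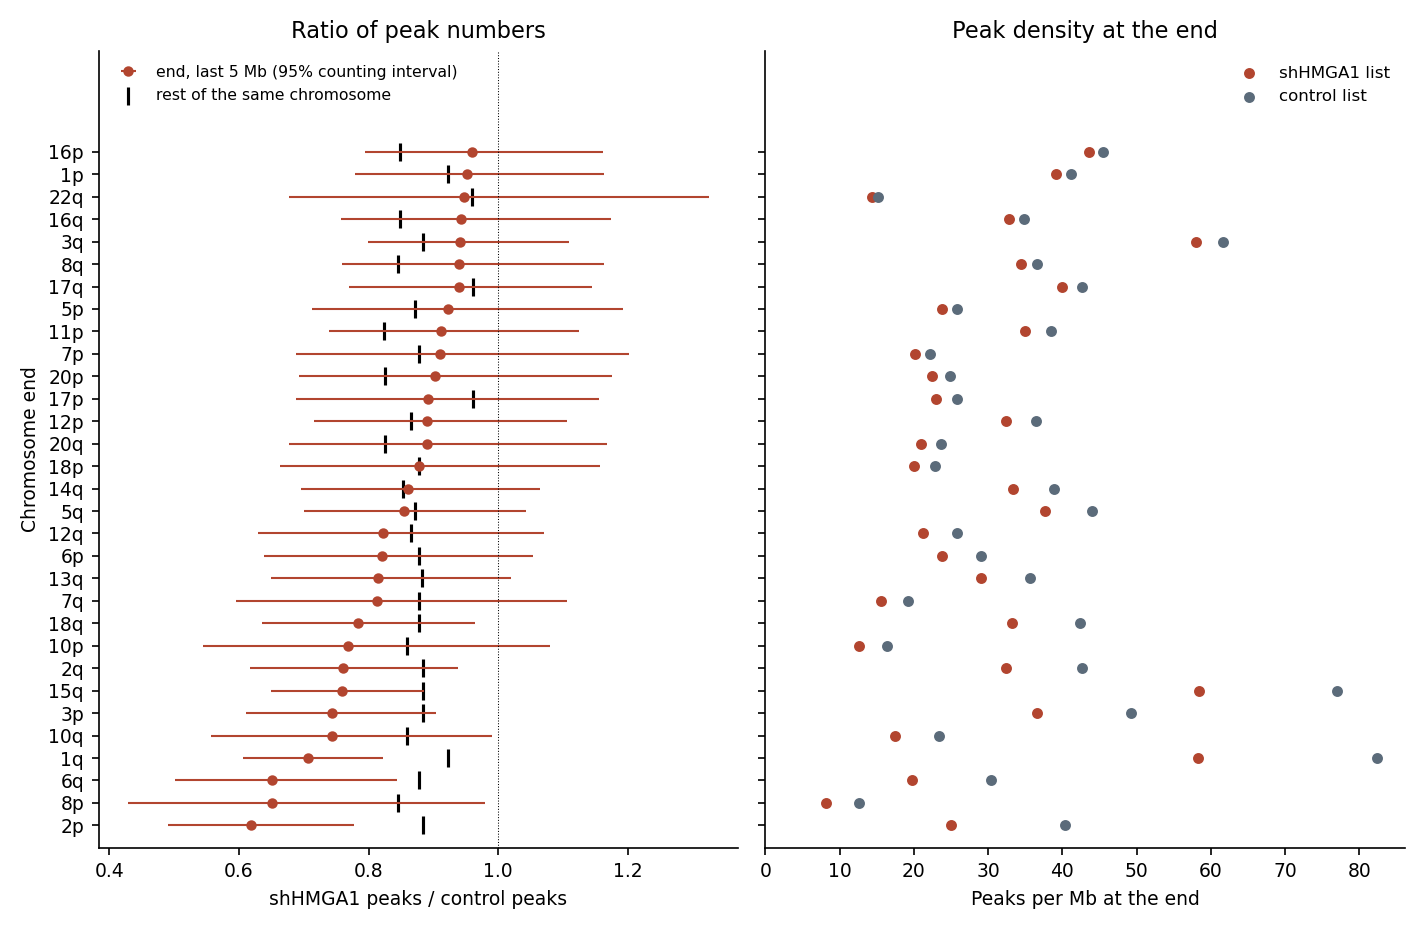
For each of the 31 ends, the ratio of shHMGA1 to control peak number with its 95% counting interval (left; black ticks give the rest of the same chromosome) and peaks per Mb in each list (right). Each ratio is below 1, from 0.619 at 2p to 0.960 at 16p, and the interval lies wholly below the tick at 2p, 6q and 1q.

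Across the 31 ends the ratio went with the width of control peaks (Spearman rho 0.57, Pearson r 0.53), and less so across the 399 windows (rho 0.15, r 0.19). Against peak density in control cells it gave rho 0.01 and r -0.10 at the ends. These are descriptions over ends that share the same libraries, unknown depth and differing base composition, and the control count enters the ratio itself.

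Chromosome bands place some known genes at these ends. The genes were chosen after the band values were seen, the counts cover bands and are not values of the genes, and gene positions on hg19 were not used here. In 5p15.33, the band of TERT, the catalytic subunit of telomerase that extends telomeres, there were 115 shHMGA1 and 124 control peaks (0.927). In 20q13.33, the band of RTEL1, a helicase that maintains telomeres, there were 105 and 117 (0.897). The end part of 16p13.3, the band of the α-globin gene HBA1, held 218 and 227 peaks. The end part of 3q29, the band of the transferrin receptor gene TFRC, held 290 and 308 (0.942). The counting intervals of these 4 ratios all include 1.

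Other bands had lower ratios. In 2p25.3, the band of MYT1L, a neuronal transcription factor gene, there were 98 shHMGA1 and 162 control peaks (0.605), with 10 shHMGA1-only and 74 control-only. In the end part of 6q27, the band of TBP, the TATA-binding protein, there were 99 and 152. The end part of 1q44, the band of the methyltransferase gene SMYD3 and known for a cluster of olfactory receptor genes, held 291 and 412 (0.706), with 24 shHMGA1-only and 148 control-only peaks. In 15q26.3, the band of the insulin-like growth factor receptor gene IGF1R, there were 263 and 346 (0.760). In 13q34, the band of the coagulation factor X gene F10, there were 141 and 172 (0.820). Of these 5 bands, 13q34 alone had a counting interval that included 1 (0.651 to 1.03). The shares of control-only among unshared peaks were 88.1% (79.2 to 94.1) in 2p25.3 and 86.0% (80.0 to 90.9) in 1q44, but 57.1% (45.9 to 67.9) in 3q29.

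Sharing differed by list. A peak was counted as shared if it had 1 bp or more in common with a peak of the opposite list. At the ends 4175 of 4613 shHMGA1 peaks were shared, 90.5% (89.6 to 91.3), against 84.2% (83.9 to 84.5) in the rest. Unshared shHMGA1 peaks were 438, or 9.49%, where the whole list has 14.8%. Of control peaks at the ends 75.1% (74.0 to 76.3) were shared, against 73.8% (73.5 to 74.1) in the rest, and 1375 (24.9%) were control-only, the same share as the 24.9% of the whole list. Against the Giemsa-negative bands of the rest the direction turned for control peaks, 75.1% at the ends and 76.7% there, while for shHMGA1 peaks it was 90.5% and 86.1%. The shHMGA1 share exceeded that of the own chromosome at 27 of 31 ends, the control share at 19. In the 5 to 10 Mb next to the ends, 90.2% (89.3 to 91.1) of shHMGA1 peaks were shared, close to the ends themselves. Of control peaks there, 71.1% (69.9 to 72.3) were shared. An overlap share depends on how many peaks the other list holds, and the shHMGA1 list was relatively shorter at the ends. The part of list length in these shares was not tested.

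Control-only peaks made up more of the unshared peaks at the ends, but not more of the control peaks (24.9%, against 26.2% in the rest). The shHMGA1-only peaks were the scarcer there, 9.49% of shHMGA1 peaks against 15.8% in the rest. This measure draws on the same counts as the ratio of peak numbers and is not separate from it. Of 1813 unshared peaks 75.8% (73.8 to 77.8) were control-only, against 65.3% (64.8 to 65.8) in the rest. The order held with only the more significant peaks (76.5% at the ends, 69.0% in the rest), with equal numbers (58.2% and 50.3%) and with a reciprocal overlap of 50% (65.7% and 59.7%). In the 5 to 10 Mb next to the ends it was 78.8% (77.0 to 80.6), above the ends themselves.

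Within 4 equal classes of each list by area, unshared peaks were those of small area. Among shHMGA1 peaks at the ends 68.4% (65.4 to 71.4) of the class of smallest area were shared, against 57.7% (56.9 to 58.4) in the rest, and 87.6% against 83.2% in the second class. In the class of largest area 1 of 1597 end peaks was unshared. Control peaks showed no such excess. At the ends 36.4% (33.7 to 39.2) of the smallest class were shared, against 36.6% in the rest, and in the second class the ends were lower, 59.3% (56.5 to 62.1) against 67.7% (67.1 to 68.3). In the largest class 5 of 1812 control end peaks were unshared.

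**Figure D4:**
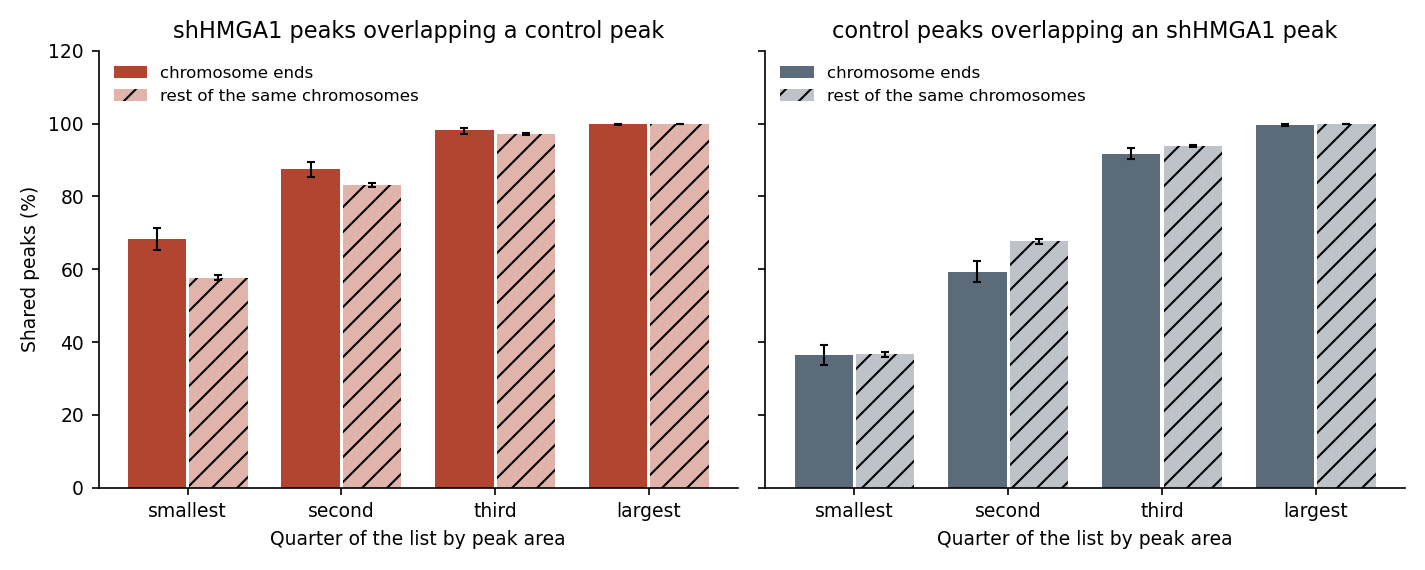
Percent of shHMGA1 peaks overlapping a control peak (left) and of control peaks overlapping an shHMGA1 peak (right) by at least 1 bp, in 4 equal classes of each list by peak area, at the chromosome ends (solid) and in the rest of the same chromosomes (hatched), with 95% counting intervals. In the smallest class shHMGA1 peaks at the ends are shared at 68.4% and those of the rest at 57.7%, while control peaks stand at 36.4% and 36.6%.

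Regions with exactly 1 peak in each list numbered 3817 at the ends. The shHMGA1 peak was the wider in 41.2% (39.6 to 42.8), against 44.7% (44.3 to 45.2) in the rest, with median log2 width ratios of -0.05 and -0.03. The median was below 0 at 26 of 31 ends and above it at 4. The shHMGA1 peak was at least 2-fold narrower in 207 pairs, 5.42% where the whole lists have 5.39%, and at least 2-fold wider in 97, 2.54% where the whole lists have 3.65%. The strongest narrowing was at 3p26.2, with 174 bp in shHMGA1 cells (chr3:3409503-3409676) against 1628 bp in control cells (chr3:3409324-3410951). Next came 2 sites in 1q44, of 173 bp in shHMGA1 cells against 1185 bp in control cells (control chr1:248782114-248783298) and of 174 bp against 1120 bp (control chr1:248590751-248591870). The strongest widening was also in 1q44, 947 bp in shHMGA1 cells (chr1:246143398-246144344) against 231 bp in control cells. It was followed by 1131 against 277 bp at 17q25.3 (shHMGA1 chr17:81061171-81062301) and 716 against 181 bp at 20p13 (shHMGA1 chr20:653211-653926).

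The end peaks of largest area stood at the same sites in both lists. The first was at 1p36.33, a stretch known as a nuclear copy of mitochondrial DNA, chr1:564397-570364 with an area of 257236 in shHMGA1 cells, ranking 5 in its list, and chr1:564398-570361 with 264119, ranking 4, in control cells. The second was at 18p11.32, 108 kb from the end, chr18:105465-112570 with 96412 in shHMGA1 cells and chr18:105525-112569 with 95890 in control cells. A peak near the tip of 5p, chr5:9952-11860 in shHMGA1 cells and chr5:9952-11861 in control cells, had areas of 45721 and 46862. A site in 13q34 had 32837 in shHMGA1 cells (chr13:111364368-111368827) and 35219 in control cells (chr13:111364356-111368842). At 10q26.3, whose end is known to carry a repeat array near-identical to one on chromosome 4, shHMGA1 cells had 1 peak of 16432 bp (chr10:135482624-135499055). The control list had 4 peaks over that span, the largest of 8729 bp (chr10:135490320-135499048). Areas depend on depth and on how samples were combined, and were not compared between the lists.

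The unshared end peaks of largest area were modest beside these. The leading shHMGA1-only peak, at 3p26.3 (chr3:1030153-1030833), ranked 19740 in its list with an area of 2224, 85859 bp from any control peak. The others, at 3q29, 5q35.3, 11p15.5 and 16q24.3, had areas of 927 to 1132, and 2 of them lay 78 and 144 bp from a control peak. The leading control-only peak, at 6p25.1 (chr6:4727582-4728583), ranked 28249 with an area of 1660, 4630 bp from any shHMGA1 peak. The next, at 12q24.33, 2q37.3, 15q26.3 and 1q44, had areas of 1474 to 1546 and lay 255 to 21048 bp from an shHMGA1 peak. These sites were picked for their areas, and genes at them were not annotated here.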

How the data were processed

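Accessible chromatin was measured by ATAC-seq in 6 samples of 2 groups, 3 infected with shHMGA1 lentivirus and 3 with control lentivirus. The submitters' processing notes name Genrich and hg19. Version, settings, aligner and read filters, and how a group's 3 samples became 1 list, are not given in any source used here. The deposited data were 1 narrowPeak list per group, assigned to its group by its own name, which gives no cell line. The signal the authors deposited is a peak area, the summed significance, and its smallest value is 200.001. The deposited −log10 p is that of the summit, unadjusted. The deposited score was the same as area over width times 1000 (nearest integer, at most 1000), with no tolerance, for 112608 of 112610 shHMGA1 and 127153 of 127153 control peaks and was not used further. Positions and summit offsets, as deposited by the authors, are in bases. Areas were compared within a list only.

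Peaks were assigned by summit with the chromosome bands and lengths of circlize 0.4.16, whose lengths equalled a second hg19 table for 24 of 24 chromosomes. The shares and ratios have exact binomial (Clopper-Pearson) and exact conditional intervals, densities exact Poisson intervals, and the ratio of ratios a normal interval on the log scale. Placement, overlap and pairing were tested on simulated lists with known answers. Scripts ran in Python 3.11.15 with scipy 1.17.1, pandas 2.3.3 and numpy 2.4.6, and figures were drawn with matplotlib 3.10.9. The members, lists and alternatives were chosen with earlier results of these data known. Each end's peak numbers are printed, and in full the 3 lowest and 3 highest ratios, the densest and sparsest ends, the 5 largest and 5 largest unshared peaks, the 3 outermost peaks and the 3 most narrowed and widened pairs. No hg19 sequence was used. The 11q end (148 shHMGA1 and 228 control peaks) was left out by rule.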

Additional observations from a re-analysis of the deposited data

How the results depend on the processing

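Of 113 values under alternatives, 70 stayed within their counting interval or within 1.5 times the main count, 41 moved beyond it and 2 turned direction. Both turns were in the control density of the ends over the rest. It became 1.01 (0.973 to 1.05) under the stricter threshold and 1.02 (0.987 to 1.06) with equal numbers. As both intervals include 1, only the point values turned. For shHMGA1 the same settings gave 0.982 and 0.983. The rest with all bands gave 0.922 (shHMGA1) and 0.972 (control), its Giemsa-negative bands 0.809 and 0.864, 10 Mb ends 0.838 for shHMGA1, and leaving out the ends below 0.7 gave 0.908 for shHMGA1. For the outermost Mb over the rest, shHMGA1 and control gave 1.32 and 1.33 under the stricter threshold, 1.32 and 1.37 with equal numbers, 1.24 and 1.27 with all bands, and 1.09 and 1.13 with Giemsa-negative bands. Equal numbers gave an shHMGA1 to control ratio of 0.962 at the ends, and 0.960, 0.935 and 0.973 in the 3 bins, partly by construction. Shared peaks were 92.9% (shHMGA1) and 80.0% (control) under the stricter threshold, 88.9% and 85.1% with equal numbers, 78.2% and 65.2% with reciprocal overlap, and 91.7% and 77.9% within 500 bp. Without the ends below 0.7 the control share was 76.5%. The control-only share was 58.2% with equal numbers and 65.7% with reciprocal overlap. Median width over the rest was 1.22 (shHMGA1) and 1.23 (control) under the stricter threshold, 1.22 and 1.22 with equal numbers, and 1.12 for control against Giemsa-negative bands. Median area was 1.36 for control with equal numbers, and 1.23 and 1.15 against Giemsa-negative bands. Leaving out each end in turn gave densities over the rest of 0.842 to 0.891 (shHMGA1) and 0.877 to 0.937 (control). The causes were not tested. Leaving out the ends below 0.7, and the Giemsa-negative comparison of width and area, were chosen after seeing the data. No paired analysis was possible because the deposited lists hold no per-sample columns, and leaving out a replicate was likewise not possible. How many weak peaks a list holds depends on a read depth that is unknown.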

Other observations

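Human chromosome 2 arose from the head-to-head fusion of 2 ancestral chromosomes, and band 2q13 holds the remains of the fused ends, now far from any telomere. In shHMGA1 cells 2q13 held 180 peaks, 42.9 per Mb, against 43.3 per Mb on the rest of chromosome 2. In control cells it held 211 peaks, 50.2 per Mb, against 49.0. The ratio of peak numbers was 0.853, against 0.884 on the rest of the chromosome. Of the shHMGA1 peaks in 2q13 90.0% were shared, against 82.5% on the rest of chromosome 2, and of the control peaks 77.3%, against 72.9%. Median widths were 487.5 bp in shHMGA1 cells and 406 bp in control cells, against 505 and 490 bp. The band was chosen for its history, and no test was made.

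Long stretches without a peak occurred inside the ends. The longest was on 7p, where no peak lay over 1742 kb in shHMGA1 cells and 1746 kb in control cells. The next was on 10q, with 1378 and 1533 kb. At 3q the longest was 156 kb in both lists.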
